A study of Mus musculus with 8 samples.

Results

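p53 binding was examined at *Btg2*, *Plk2* and *Ccnd1*, 3 genes that act on cell cycle progression other than the p21 gene *Cdkn1a*. They are 3 of the 1425 genes to which a deposited table assigns regions with higher p53 binding after bleomycin, and they hold 7 of its 915 regions. Members were named by gene, and each peak within 50 kb of their transcription start sites (TSSs) was read from the peak list of each library. Alveolar organoids were grown from alveolar type II (AT2) epithelial cells, which make surfactant, sorted from wild-type mice, and were exposed for 24 h to DMSO (CTRL, 2 libraries) or to 100 μM bleomycin (BLM, 2 libraries). Chromatin was immunoprecipitated with a rabbit monoclonal antibody against p53 and sequenced (ChIP-seq). The study used 2 independent mice, and the labels do not say which libraries came from the same animal. Replicate spread may therefore be partly technical. The 4 matching input libraries had no peak list and were not analysed here. ChIP-seq measures no RNA, so the cell type of the organoids could not be checked against expression markers.

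p53 is a transcription factor that is stabilised when DNA is broken, and bleomycin breaks DNA. It halts the cell cycle mainly through p21, an inhibitor of cyclin-dependent kinases, and it also activates other genes that slow or guard the cycle. *Btg2* encodes a member of the antiproliferative BTG/TOB family, which recruits mRNA deadenylation complexes, and it is a classic p53 target. *Plk2* encodes a polo-like kinase that acts in centriole duplication and in checkpoint responses and is likewise a known p53 target. *Ccnd1* encodes cyclin D1, the partner of CDK4 and CDK6 that drives cells from G1 into S phase, and is thus a gene that promotes rather than restrains division.

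The promoters of *Btg2* and *Plk2* are shown because these genes had a region within 5 kb of the TSS and, in all 4 libraries, a broad peak over the TSS itself. Each sequence gives the 250 bases before the RefSeq start on GRCm38.p6, 5′ to 3′ on the strand of the gene, and 2 of the 3 genes were matched in the promoter table. The *Btg2* sequence lies at chr1:134079156-134079405 on the minus strand, and that of *Plk2* at chr13:110394794-110395043 on the plus strand. Capitals mark p53 half-sites with at most 1 mismatch outside the C and G of their core, and the palindrome TGACGTCA, the cyclic AMP response element.
Btg2: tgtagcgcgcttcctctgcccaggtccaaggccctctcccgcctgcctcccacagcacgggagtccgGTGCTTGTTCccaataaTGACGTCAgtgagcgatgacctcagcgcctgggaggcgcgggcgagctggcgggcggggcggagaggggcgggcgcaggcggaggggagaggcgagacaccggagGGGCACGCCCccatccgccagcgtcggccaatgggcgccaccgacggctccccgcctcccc
Plk2: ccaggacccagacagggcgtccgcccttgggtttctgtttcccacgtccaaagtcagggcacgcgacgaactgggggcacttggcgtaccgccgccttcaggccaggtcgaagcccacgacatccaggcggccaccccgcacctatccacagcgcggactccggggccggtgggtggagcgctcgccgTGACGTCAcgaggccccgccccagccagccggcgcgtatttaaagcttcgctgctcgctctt

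In these windows the *Btg2* sequence held 2 p53 half-sites, GTGCTTGTTC starting 183 bases and GGGCACGCCC starting 61 bases before the RefSeq start. Neither was free of mismatches, and no pair of them lay 0 to 13 bases apart, the spacing of a full response element, which 2.20% of all promoter windows held. The *Plk2* sequence held no such half-site (0). Over all 32851 promoter windows of the same length in the table, 44.7% held a half-site with at most 1 mismatch and 7.13% one without, so the *Btg2* matches are common. The half-site pattern reads the same on both strands. TGACGTCA, searched after the sequences had been seen and also identical on both strands, started 166 bases before the start of *Btg2* and 62 bases before that of *Plk2*, and 1.55% of all windows held it. It overlapped no half-site in either window. The windows are counted from the RefSeq start and the summits from the start that the assigned distances imply, and these need not coincide. On these distances both windows end short of the main BLM summits near these genes, at *Btg2* only narrowly. At the *Btg2* promoter these lay 287 and 288 bp upstream of the TSS, and the near *Plk2* region lies 2155 bp upstream. Whether a response element lies under those summits was not tested. The peak lists are on GRCm39, and sequence outside the printed windows was not used here.

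Fold enrichment is the value that the peak caller gives for a peak over its local background, and it is ranked here within the list of its own library as a percentile, with 100 as the highest. The CTRL lists held 50430 and 48743 peaks and the BLM lists 39577 and 41451, and their median fold enrichment ranged from 6.59 to 7.37. Read counts were not part of these files, so the depth behind a peak is unknown. With 2 libraries against 2, an exact permutation test cannot reach a two-sided p under 0.333, and differences are therefore given without a test. The 915 regions were selected by the authors for higher binding in BLM, so higher values in BLM at these regions describe that selection and are no independent evidence.

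*Btg2* was assigned 2 regions, a promoter region and a distal one, and both ranked among the highest peaks of the BLM libraries. The promoter region, chr1:134006922-134007321 on GRCm39, has its middle 263 bp upstream of the TSS. The peak there reached a fold enrichment of 20.8 and 11.3 in CTRL and of 39 and 25.5 in BLM. Both BLM values lay above both CTRL values, with means of 32.2 ± 9.56 (SD, n = 2) in BLM and 16.1 ± 6.72 (SD, n = 2) in CTRL, and the ratio of the means was 2.00. Each group spread widely, and the lower BLM value exceeded the higher CTRL value by less than the SD of either group. By rank the peak stood at percentile 96.96 and 77.74 in CTRL and at 99.74 and 99.33 in BLM, where it was rank 105 of 39577 and rank 279 of 41451.

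The promoter peak of *Btg2* was wide in every library. It spanned 1635 and 1266 bp in CTRL and 2410 and 1505 bp in BLM, against median peak widths of 279 to 330 bp in the 4 lists, and no less than percentile 98.68 by width. Its summit lay 287 and 288 bp upstream of the TSS in BLM. In CTRL the summit lay 245 and 182 bp upstream, closer to the TSS than in either BLM library. In BLM replicate 1 the peak reached from 1008 bp upstream to 1401 bp downstream of the TSS.

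The distal region of *Btg2*, chr1:134028662-134029061, lies 22003 bp upstream of its TSS and was weak in CTRL. The fold enrichment was 5.38 in both CTRL libraries, against 29.6 and 38.3 in BLM. The mean in BLM was 33.9 ± 6.19 (SD, n = 2), 6.31 times the CTRL mean, a difference much larger than the spread between replicates. The peak stood at percentile 23.08 and 22.36 of the CTRL lists, below their medians, and at 99.52 and 99.73 of the BLM lists. It was also wider, with 720 and 852 bp in BLM against 266 and 137 bp in CTRL. All 4 summits fell within 17 bp of each other. The same region is assigned to *Chit1*, which encodes a chitinase, and lies 10119 bp upstream of that gene's TSS, nearer than to *Btg2*. It lies between the 2 genes, which are protein-coding neighbours in RefSeq, and upstream of both.

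*Plk2* carried the highest peak of the 3 genes, 2155 bp upstream of its TSS at chr13:110529226-110529625. The fold enrichment there was 11 and 10.2 in CTRL, against 54.9 and 53.1 in BLM. The replicates of each group lay close together, with means of 54.0 ± 1.31 (SD, n = 2) in BLM and 10.6 ± 0.608 (SD, n = 2) in CTRL and a ratio of 5.08. The peak stood at percentile 75.77 and 71.65 in CTRL and at 99.87 and 99.86 in BLM, where it was rank 52 and rank 59 of its list. It spanned 845 and 832 bp in BLM and 308 and 252 bp in CTRL. The summits of the 2 BLM libraries lay 2158 and 2152 bp upstream of the TSS, and those of the 4 libraries within 49 bp of each other.

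The peak covering the TSS of *Plk2* itself showed no such difference. It reached a fold enrichment of 13.9 and 20.5 in CTRL and of 17 and 15.5 in BLM, so the groups overlapped. CTRL averaged 17.2 ± 4.67 (SD, n = 2) there, and BLM 16.2 ± 1.06 (SD, n = 2). It was as broad as the promoter peak of *Btg2*, between 1465 and 1978 bp, and at percentile 99.12 or above by width in every library. This peak is not in the enriched list. The upstream peak of *Plk2* differed 5.08 times between the groups while the peak over the TSS differed by less than its replicate spread. The upstream region was selected for higher binding in BLM and the TSS peak was not, so the selection partly sets this contrast.

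The other 3 regions assigned to *Plk2* lie more than 500 kb downstream, and each is nearer to *Actbl2*, which encodes an actin-like protein and is the next protein-coding gene in RefSeq. The region 568616 bp from the *Plk2* TSS (chr13:111099997-111100396) was bound in BLM, at a fold enrichment of 17.1 and 18.4, and had no peak in either CTRL library. These BLM peaks stood at percentile 97.22 and 97.76, with summits 1 bp apart, and the region lies 291351 bp upstream of the *Actbl2* TSS. At the region 534714 bp away, the fold enrichment was 4.54 and 4.10 in CTRL and 6.54 and 5.40 in BLM, all of them low. Of the 2 peaks over that region in BLM replicate 1, the one with the larger overlap had 3.98, and with it the groups overlapped and the ratio of means was 1.08 in place of 1.38. At the region 572361 bp away, the CTRL values of 5.86 and 9.94 overlapped the BLM values of 7.95 and 15.8.

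*Ccnd1* was assigned a single region, 31504 bp upstream of its TSS at chr7:144524911-144525310, with lower peaks than the near regions of the other two genes. The fold enrichment in BLM was 14.1 and 10.7, at percentile 94.06 and 83.57. In CTRL replicate 1 the higher of 2 peaks over the region had a fold enrichment of 7.78, at percentile 54.46. In CTRL replicate 2 no peak overlapped the region. That library nevertheless had a peak on each side of it, one of fold enrichment 9.04 ending 40 bases before it and one of 6.38 starting 9 bases after it. In the BLM libraries a single peak, of 688 and 1083 bp, covered the whole region. Of 589 enriched regions without a peak in CTRL replicate 2, only 1, the *Ccnd1* region, had a peak with fewer than 50 bases between them. Counting those flanking peaks, a choice made after they were seen, gave a ratio of means of 1.47 in place of 1.59. The region is also assigned to *1810010D01Rik*, 236707 bp from that gene's TSS.

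**Figure D1:**
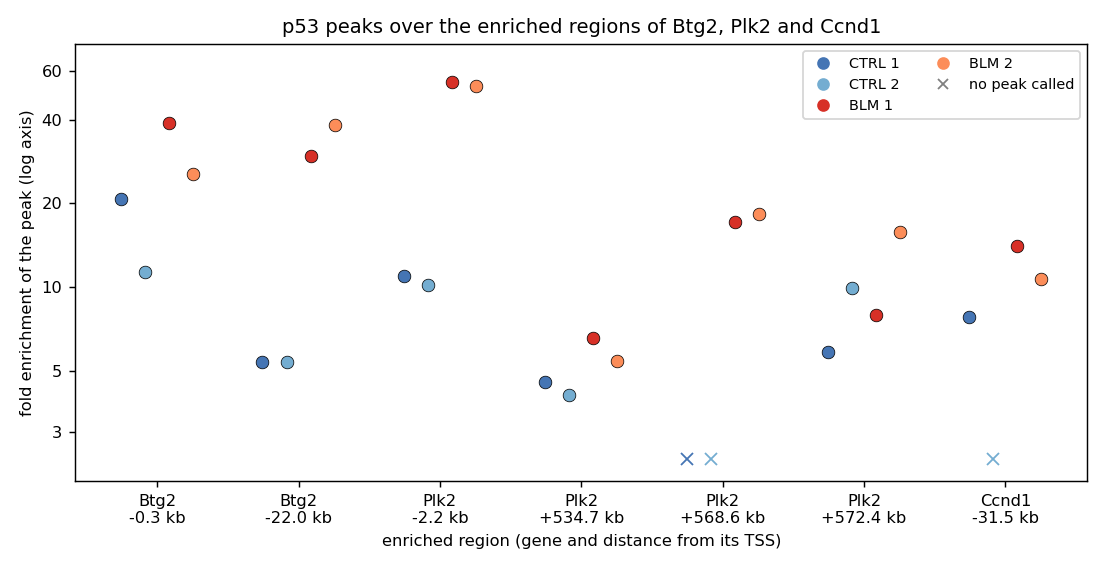
Fold enrichment (log axis) of the peak over each of the 7 enriched regions of *Btg2*, *Plk2* and *Ccnd1*, by distance from the TSS, with a point for each library and a cross where no peak was called. The 2 BLM points lie above the 2 CTRL points at the near *Plk2* region (54.9 and 53.1 against 11 and 10.2) and at the distal *Btg2* region, while they overlap at the *Plk2* region 572361 bp away.

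Of the 7 regions, 5 were called in all 4 libraries, against 30.6% of all 915 enriched regions. One region (1 of 7, *Plk2* at 568616 bp) was called in both BLM and in neither CTRL library, a pattern found for 56.8% of the enriched regions. Without CTRL replicate 1, the *Ccnd1* region joined it and the count was 2. The BLM percentiles lay above every called CTRL percentile at 6 of the 7 regions, as they did at 94.8% of all enriched regions, a share that the selection of the list sets. With the peak of largest overlap the number was 5 of 7. Among the 280 enriched regions called in all 4 libraries, the ratio of mean fold enrichment had a median of 2.41, with quartiles of 1.61 and 3.72. The distal *Btg2* region had the ratio of rank 12 and the near *Plk2* region that of rank 30. The *Btg2* promoter, at rank 169, lay below the median, and the *Plk2* regions at 572361 and 534714 bp had ranks 225 and 238.

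**Figure D2:**
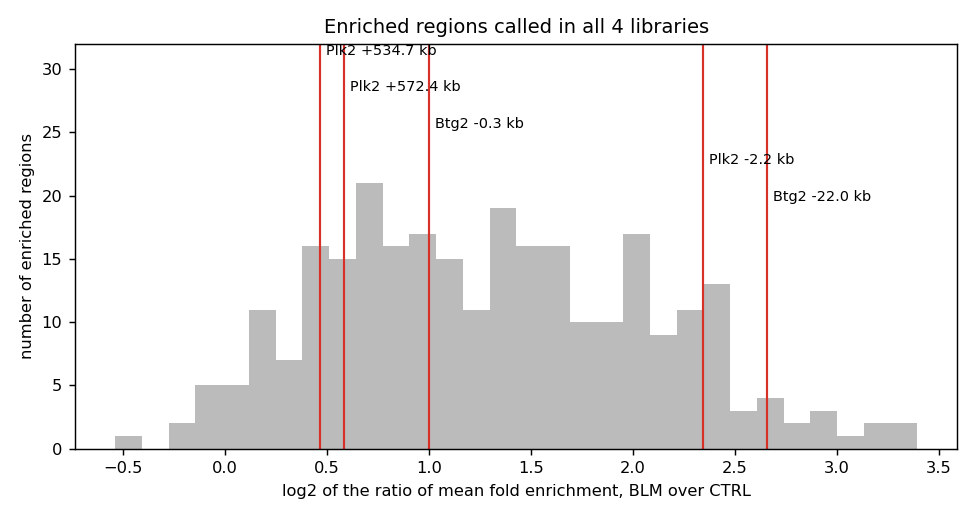
Histogram of the log2 ratio of mean fold enrichment, BLM over CTRL, for the 280 enriched regions called in all 4 libraries, with red lines at the 5 such regions of *Btg2* and *Plk2*. The lines for the distal *Btg2* region (ratio 6.31) and the near *Plk2* region (5.08) lie in the upper tail, and that of the *Btg2* promoter (2.00) lies below the median of 2.41.

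The windows around the 3 genes also held many peaks outside the enriched list. Within 50 kb of the *Btg2* TSS, 22 and 21 peaks were called in CTRL and 25 in each BLM library. For *Plk2* the numbers were 13 and 11 in CTRL and 8 and 12 in BLM, which overlapped. For *Ccnd1* they were 11 and 12 in CTRL and 9 in each BLM library, lower than in CTRL, and the whole BLM lists were also shorter. At 1075 genes of the table whose strand was known, the same window held a median of 4 peaks in every library. The upper quartile there was 7, and the windows of all 3 members lay above it in every library, that of *Btg2* highest. The order of the groups at *Btg2* turned under a −log10 q minimum of 5, with a mean of 20 in CTRL and 18.5 in BLM. It was kept with equal list lengths, with 19.5 in CTRL and 25 in BLM.

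Once overlapping peaks had been merged across the libraries, these windows held 53 joined regions, 27 at *Btg2*, 15 at *Plk2* and 11 at *Ccnd1*. All 4 libraries had a peak over 28 of them (52.8%), against 41.6% of all joined regions of the genome. By gene these were 13 of 27 at *Btg2*, 7 of 15 at *Plk2* and 8 of 11 at *Ccnd1*. Both BLM and neither CTRL library had a peak over 3 regions (5.66%, against a background of 2.03%), all of them at *Btg2* and none in the enriched list. They lie 4332, 19098 and 33005 bp downstream of its TSS, and their fold enrichment ranged from 3.67 to 7.16, against medians of 6.67 and 6.59 in the BLM lists. Both CTRL and neither BLM library had a peak over 4 regions, 2 at *Btg2* and 2 at *Plk2*.

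**Figure D3:**
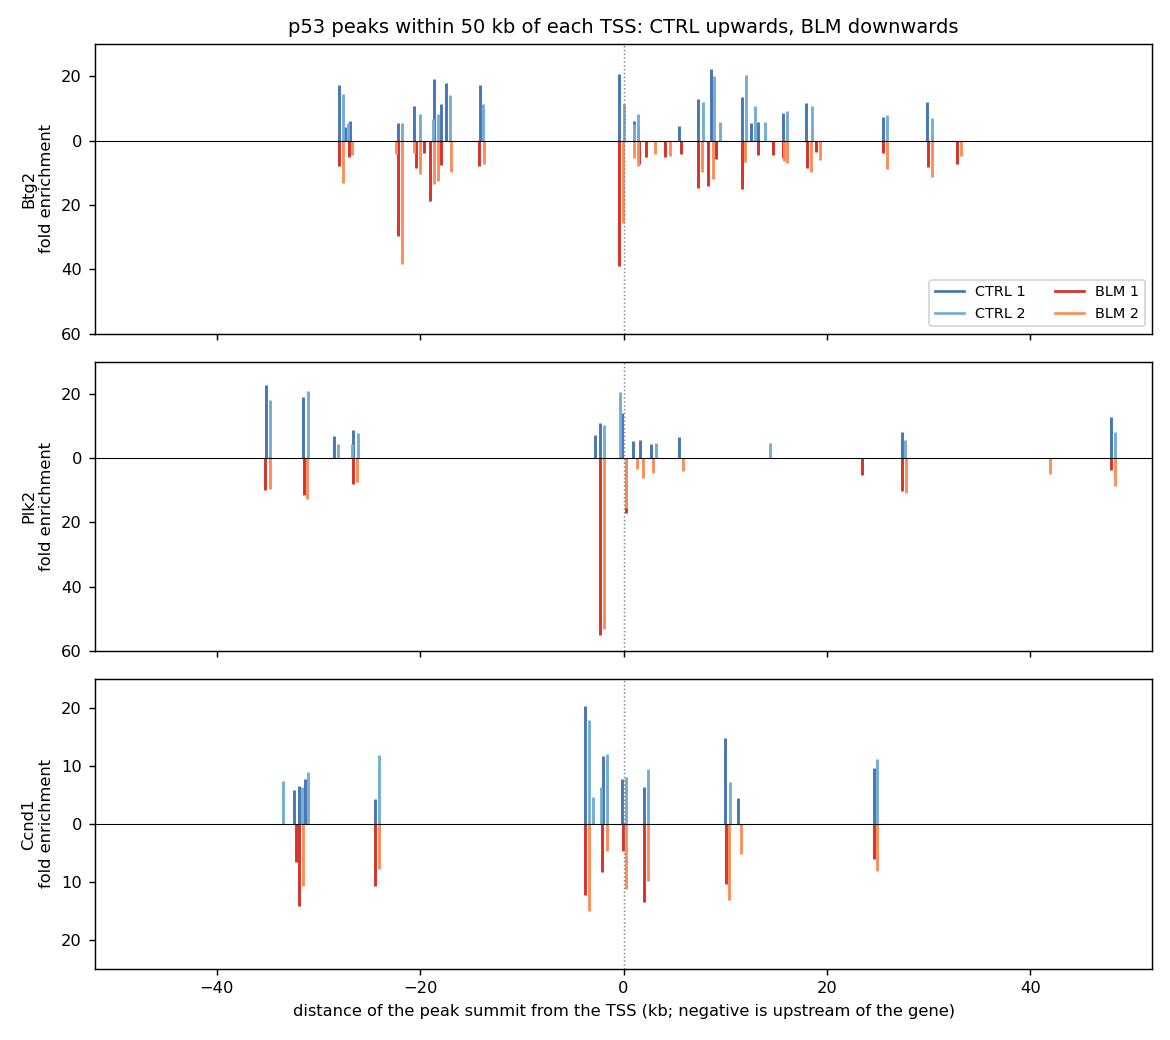
Fold enrichment of each peak against the distance of its summit from the TSS, for *Btg2*, *Plk2* and *Ccnd1*, with CTRL libraries drawn upwards and BLM libraries downwards. The tallest BLM peaks stand over the enriched regions centred 22003 and 263 bp upstream of *Btg2* and 2155 bp upstream of *Plk2*. No BLM peak in the *Ccnd1* window exceeds a fold enrichment of 15.

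Percentiles were compared at the 28 joined regions called in all 4 libraries. Both BLM percentiles lay above both CTRL percentiles at 6 (21.4%), against 11.8% of such regions in the genome, and 4 of the 6 hold a region of the enriched list. The *Ccnd1* region is among them because merging brought in the flanking peaks of CTRL replicate 2. The opposite order was found at 7 regions (25%, against 30.5%), and the groups overlapped at the other 15. The list selected 4 of the 6, so their count is no result of its own. The 2 regions outside the list lay 27564 bp downstream of the *Plk2* TSS and 2199 bp downstream of the *Ccnd1* TSS. At the *Plk2* region the fold enrichment was 8.22 and 5.57 in CTRL and 10.1 and 10.7 in BLM. At the *Ccnd1* region it was 6.44 and 9.48 in CTRL and 13.5 and 9.87 in BLM, where the lower BLM value barely exceeded the higher CTRL value.

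Regions with lower rank in BLM included the strongest CTRL peaks of the *Plk2* window. The region 34972 bp upstream of *Plk2* reached 22.6 and 18 in CTRL and 9.79 and 9.52 in BLM, and the one 31284 bp upstream 18.9 and 20.9 in CTRL and 11.5 and 12.8 in BLM. At *Btg2* the region 8624 bp downstream of the TSS, the highest of the window in CTRL replicate 1, had 22.2 and 20.1 in CTRL and 14 and 12 in BLM. In each of these 3 cases the CTRL values were above the BLM values without overlap. They were picked from the regions with both CTRL percentiles above both BLM percentiles, which largely sets that outcome. In the genome, 30.5% of the regions called in all 4 libraries had this order. At *Ccnd1* the region 1868 bp upstream stood at percentile 79.0 and 80.6 in CTRL and at 68.9 and 13.5 in BLM, where the replicates differed widely.

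**Figure D4:**
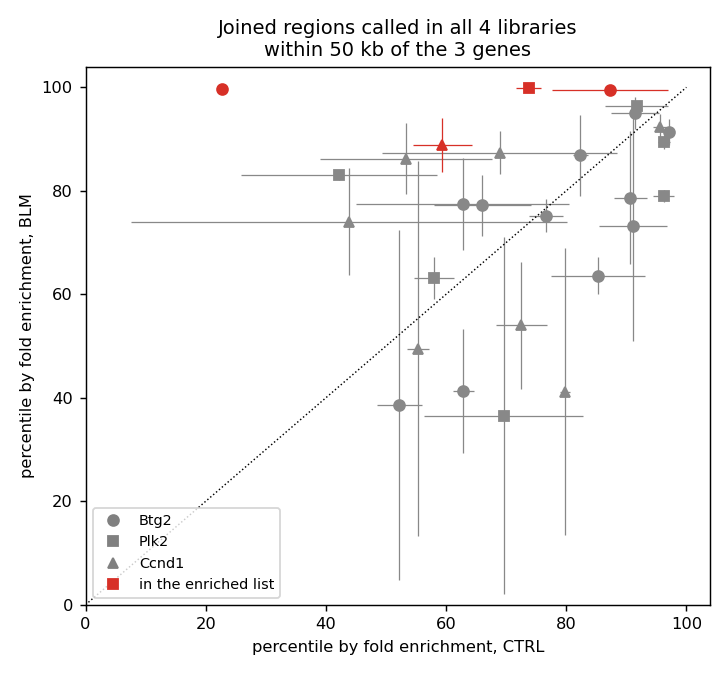
Mean percentile by fold enrichment in BLM against CTRL for the 28 joined regions called in all 4 libraries within 50 kb of *Btg2*, *Plk2* or *Ccnd1*. Bars run from one replicate to the other, red marks the 4 regions that hold an enriched region, and the dotted line marks equal percentiles. Red points lie above the line, with the distal *Btg2* region at the far left, and grey points lie on both sides.

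The TSS of *Ccnd1* carried a peak in all 4 libraries, of modest fold enrichment in 3 of them and not as wide as those at the other two genes. Its fold enrichment was 7.68 and 8.06 in CTRL and 4.59 and 11.2 in BLM, so that the BLM replicates lay on either side of both CTRL values. The CTRL mean was 7.87 ± 0.269 (SD, n = 2), and the BLM mean 7.89 ± 4.67 (SD, n = 2). The peak spanned 268 and 468 bp in CTRL and 536 and 547 bp in BLM, at percentile 37.93, 71.64, 84.14 and 84.84 by width, where the TSS peaks of *Btg2* and *Plk2* spanned at least 1266 bp. The highest CTRL peak of the *Ccnd1* window lay 3600 bp upstream of the TSS, where fold enrichment was 20.4 and 17.9 in CTRL and 12.2 and 15 in BLM. Its percentiles overlapped between the groups, since BLM replicate 2, at 94.8, exceeded CTRL replicate 2, at 94.4.

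By distance, 2 of the 3 genes had a region within 5 kb of the TSS, as did 13.0% of the 1425 genes of the table. *Btg2* was 47th and *Plk2* 128th by the distance of the nearest region, and *Ccnd1*, at 31504 bp, was 538th. *Plk2*, with 4 regions, was among 8 genes with at least that many. All but its nearest region lie 534714 bp or more away and are nearer to *Actbl2*. By the highest mean BLM percentile over its regions, *Plk2* (99.87) was 92nd, *Btg2* (99.63) 199th and *Ccnd1* (88.82) 683rd.

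Cell cycle genes were looked up by lists, one of which is made of known p53 targets. The lists also hold the 3 members, which were picked from the genes with an assigned region, and *Cdkn1a*. The counts below include these genes and are thus partly set by that choice. Of 51 listed genes, 12 had an assigned region, 8 of them within 50 kb of the TSS and 6 within 5 kb. Of 21900 protein-coding genes in RefSeq, matched by symbol, 6.28% had an assigned region, 3.05% one within 50 kb and 0.817% one within 5 kb, and the list of p53 targets was made of genes known to respond to p53. Of 15 p53 targets that restrain the cycle, 8 had a region, and 6 of these lay within 5 kb, *Btg2*, *Plk2* and *Cdkn1a* among them. *Btg2* was the only one of 6 BTG/TOB genes within 50 kb, while *Tob1* and *Btg4* had regions 76865 bp upstream and 59969 bp downstream. *Plk2* was the only one of 5 polo-like kinase genes in the table, and *Ccnd1* the only one of 5 genes for D cyclins and their kinases. None (0) of 8 other cyclin and CDK genes and none (0) of 9 genes of the pocket protein and E2F families was in the table, which at a background of 6.28% says nothing particular about these families. Of 7 CDK inhibitor genes, *Cdkn1a* and *Cdkn1c* were.

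Peaks at other listed genes were set beside those of the 3 members. At *Ccng1*, which encodes cyclin G1, the peak 155 bp upstream of the TSS reached 17 and 18.1 in CTRL and 45.3 and 52.4 in BLM. *Zmat3*, which encodes a zinc finger RNA-binding protein, had 22.4 and 22.1 in CTRL and 70.7 and 99.7 in BLM at the region 1335 bp downstream. At *Sesn2*, the sestrin 2 gene, the values 752 bp downstream were 6 and 5.47 in CTRL and 20.7 and 13 in BLM. The BLM values of the near *Plk2* region (54.9 and 53.1) were slightly above those of *Ccng1* and below those of *Zmat3*. *Rprm*, which encodes the G2 arrest protein Reprimo, had a peak 20898 bp upstream in BLM alone, with 7.56 and 10.2, and no CTRL peak. The *Ccnd1* region, at 31504 bp, lay farther from its TSS and had BLM values of 14.1 and 10.7. At *Cdkn1a* the region 2830 bp upstream of the TSS, the highest of its 5 in BLM, reached 86.8 and 103 there. It was about as far from its TSS as the near *Plk2* region but higher. The nearest *Cdkn1a* region, 735 bp downstream, had 21.1 and 19.4 in BLM, below the near *Plk2* region.

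**Figure D5:**
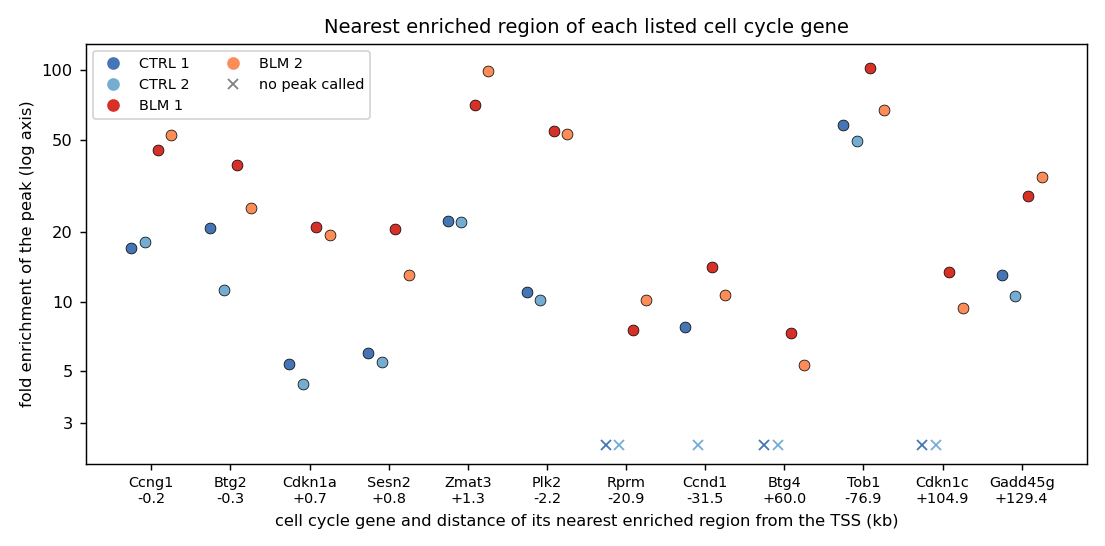
Fold enrichment (log axis) of the peak over the nearest enriched region of each of the 12 listed cell cycle genes with one, ordered by distance from the TSS, with a point for each library and a cross where no peak was called. *Plk2* (54.9 and 53.1 in BLM) stands with *Ccng1* and *Zmat3*, and *Ccnd1* (14.1 and 10.7) lies lower. Level did not follow distance throughout, since *Tob1* at 76865 bp had 102 and 67.6 and *Gadd45g* at 129383 bp had 28.7 and 34.6 in BLM. In CTRL the *Tob1* peak was already high, with 58.3 and 49.4, and the *Gadd45g* peak had 13 and 10.6.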

How the data were processed

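Peak lists of 4 p53 ChIP-seq libraries (2 CTRL, 2 BLM) and the authors' list of 915 BLM-enriched regions with its gene table were used. The authors called peaks per library, and deposited for each peak a score (10 times the −log10 q), a fold enrichment, and −log10 values for p and q, with −log10 q above 2 throughout. The submitters' processing notes name Trim Galore 0.6.7, Bowtie2 2.5.1, MACS3 3.0.0b1, DiffBind 3.8.4 and edgeR 3.40.2, without their settings. Whether duplicate reads were removed and which control was used, both of which bear on fold enrichment, is not given in the sources used here.

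The gene table was made with GREAT 4.0.4 on mm10, and peaks are on GRCm39 (mm39). No position was converted. Distances are signed along the strand of the gene: read that way, 73 of 75 plus-strand and 67 of 73 minus-strand genes with at least 2 regions implied 1 start within 10 bp. TSSs were thus taken as region middle minus distance for *Plk2*, and plus distance for *Btg2* and *Ccnd1*, on the minus strand. The strand of *Ccnd1* was judged from the shift of its RefSeq position between builds, which differed by 16 bp from that of 5 neighbours, against 72924 bp for the other strand. GREAT and RefSeq starts need not coincide.

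An overlap of 1 bp was enough for peaks to count as shared, and the peak with the highest fold was taken where several overlapped. Python 3.11.15, numpy 2.4.6, pandas 2.3.3 and matplotlib 3.10.9 were used. Joining, ranking and motif search were tested on simulated data. Genes named are the 3 members, genes sharing their regions, and listed genes with a region within 50 kb. *Tob1*, *Btg4*, *Cdkn1c* and *Gadd45g* were named to complete counts, and single joined regions and the TGACGTCA search were chosen after values were seen. The members and lists were chosen with earlier results of these data known. Alternatives were other windows, thresholds, list lengths, overlaps and rankings, and each library left out.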

Additional observations from a re-analysis of the deposited data

How the results depend on the processing

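Of 135 alternative values, 101 differed from the reported value by less than the spread between replicates or, for counts, by at most 1.5 times, and 34 moved further. No ratio of fold enrichment changed direction. No paired analysis was possible because no result comes from a test and the labels do not say which libraries share a mouse.

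Mean peak numbers within 10 kb in CTRL and BLM were 6 and 7.5 at *Btg2*, 5 and 4 at *Plk2*, and 5 and 4.5 at *Ccnd1*. Within 100 kb they were 25.5 and 29.5 at *Btg2* and 17 and 13.5 at *Ccnd1*, and 15 in CTRL at *Plk2*. With a −log10 q of at least 5, they were 20 and 18.5 at *Btg2*, and 10 and 10.5 in CTRL at *Plk2* and *Ccnd1*. The order of the groups at *Btg2* thus turned with that threshold. With 39577 peaks per library, the CTRL means were 19.5, 9.5 and 10 at *Btg2*, *Plk2* and *Ccnd1*. The BLM means were then 25, 9.5 and 9.

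Ranked by −log10 q, the mean percentile was 27.21 at the distal *Btg2* region in CTRL, 99.89 at the near *Plk2* region in BLM and 52.64 at the *Ccnd1* region in CTRL. With a −log10 q of at least 5, it was 9.541 at *Btg2*, 69.22 at *Plk2* and 46.79 at *Ccnd1* in CTRL, and 99.84 at *Plk2* in BLM. With equal list lengths, the CTRL values were 3.182, 67.1 and 41.97 at *Btg2*, *Plk2* and *Ccnd1*. Both of these settings shorten the CTRL lists from their weak end. The −log10 q minimum also shortens the BLM lists, to 32795 and 33980 peaks, and equal lengths shorten that of BLM replicate 2.

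The *Plk2* region at 534714 bp had a ratio of 1.08 with the peak of largest overlap. Regions called in both BLM and no CTRL library numbered 2 with a −log10 q of at least 5 and 2 with equal list lengths, where the *Plk2* region at 534714 bp was added, and ranged from 1 to 2 with a library left out. With a library left out, the ratio ranged from 1.55 to 2.84 at the *Btg2* promoter and 5.50 to 7.13 at the distal *Btg2* region. It ranged from 4.89 to 5.30 at the near *Plk2* region, 1.01 to 2.02 at the *Plk2* region 572361 bp away and 1.37 to 1.81 at *Ccnd1*. With an overlap of at least 50%, or with the peak of largest overlap, the *Ccnd1* ratio was 1.89. Listed genes with a region within 5 kb numbered 6, and member promoters with a half-site free of mismatches numbered 0. Without read counts, no interval for counting error could be given for any peak.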
